A study of Mus musculus with 24 samples.

Results

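The genes described here are the ligands and receptors of the axon guidance families: semaphorins and their plexin receptors, ephrins and Eph receptors, netrins and netrin-Gs with the receptors Dcc and Unc5a to Unc5d, and Slits with their Robo receptors. Members were chosen by gene symbol alone, as every symbol of these families that was listed in all 4 deposited expression tables. This gave 59 of the 14014 genes listed in all 4 tables, 31 ligands and 28 receptors. By family there were 5 class 3 semaphorins, 13 semaphorins of classes 4 to 7, 9 plexins, 6 ephrins, 11 Eph receptors, 4 netrins and netrin-Gs, 5 netrin receptors, 3 Slits and 3 Robo receptors. The GENCODE M21 annotation holds 69 protein-coding genes whose symbols match. Efna2, Ntn5 and Robo4 were listed in some tables only, and Efna4, Epha1, Epha2, Epha8, Ntn3, Sema3b and Sema3g were not analysed here.

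Guidance molecules were named for steering growing axons, by attraction or repulsion, during development. Ligands are secreted or held on a membrane and bind receptors that act on the actin cytoskeleton. In the adult cortex many of these genes remain expressed in neurons, where they act at synapses and dendritic spines, and some act in glia, vessels and immune cells.

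RNA came from the cortex of male mice, 3 to 4 months old, in which the middle cerebral artery was occluded for 1 h and then reopened for 1 day, a model of ischemic stroke. The mice were wild type (WT, 6 animals) or lacked ciRS-7 (KO, 6 animals), a brain circular RNA also called Cdr1as that carries many binding sites for the microRNA miR-7. Each animal gave a library marked CL and a library marked PI. The labels do not spell out these marks, and they are used as given, so the 24 libraries form 4 groups of 6, named by mark and genotype (CL WT and PI WT from the WT animals, CL KO and PI KO from the KO animals). All animals, WT included, carry the same strain label, C57BL/6N-Cdr1asem1Nikr, and all underwent the occlusion, so no group is without surgery.

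Expression was given as log2 CPM, the log2 of a read count scaled to the size of its library. The effective depth, read from the step between low values, was 5.27 to 10.5 megareads per library (median 6.94), and 3 reads, the upper limit that a count of 0 allows, correspond to 0.286 to 0.569 CPM. These limits cover counting error only. Deposited values of Cdr1as, the deleted gene, ran from 2558 to 3890 CPM over the WT libraries and reached at most 0.166 CPM in KO, under that limit. All 9 cortex layer markers examined were listed. In every gene the authors' 2 lowest values of a group were tied at its lower quartile and the 2 highest at its upper quartile, so the lowest and highest values given below are a group's quartiles and its true extremes are not known. Values after ± are the standard error (SE) of a group's trimmed mean, and the SE of a change is that of a difference between trimmed means, with 6 libraries per group throughout. A gene is called where its p, adjusted over all genes of its table, is under 0.05 in the moderated trimmed-mean test.

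Levels of the members in CL WT spanned from 0.251 CPM per kb of merged exon length for Ephb4 to 55.4 for Epha4. Epha4, a receptor that binds ephrins of both the A and the B class, stood well above the next Eph receptor, Ephb6, at 12.8 CPM per kb. Among ligands the highest level was that of Sema7a, a semaphorin held on the membrane by a lipid anchor, at 22.9 CPM per kb. Robo2, a receptor for Slits, stood at 17.7 CPM per kb, and Robo1 and Robo3 at 3.50 and 2.32. The plexins were led by Plxna2 with 15.6 CPM per kb and Plxna4 with 11.8, and Plxnb3 was lowest with 1.27. The ephrins ran from 0.778 CPM per kb for Efna1 to 12.0 for Efna5, and the netrin receptors from 0.851 for Unc5b to 10.2 for Unc5d. Netrins were low, with 0.444 CPM per kb for Ntn1 and 2.27 for Ntng1, and the Slits lay close together, from 2.48 for Slit2 to 3.99 for Slit3. At the lowest depth of a CL WT library these levels correspond to about 6.8 reads for Ephb4 and 8.3 for Efna1, against 2604.5 for Epha4, so changes of the low members rest on few reads.

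**Figure D1:**
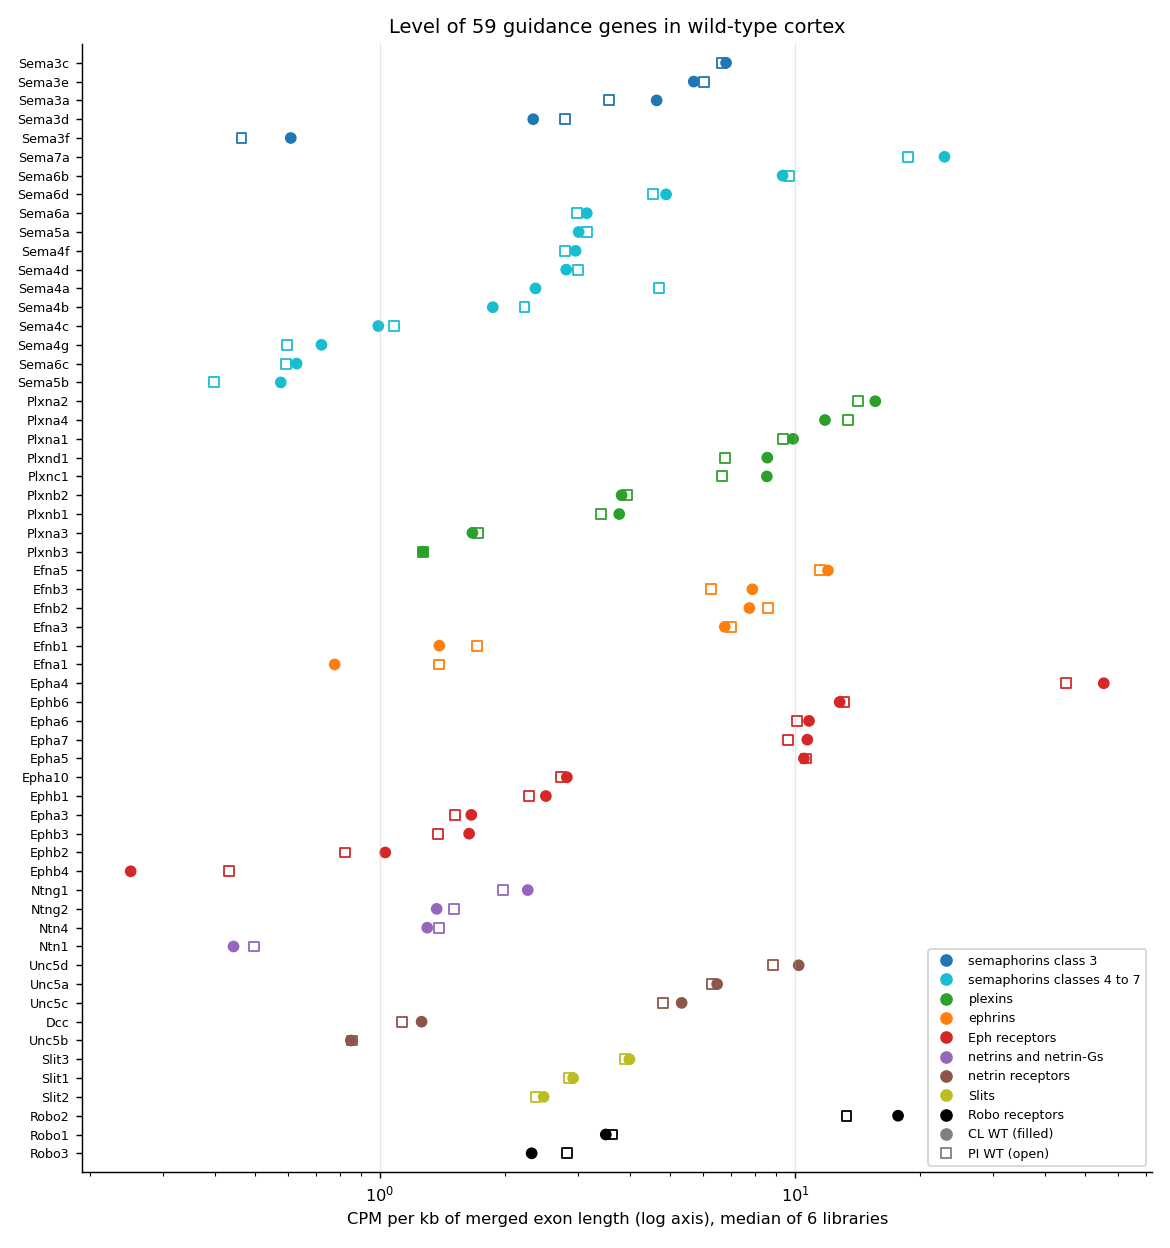
Level of each of the 59 members in CL WT (filled circles) and PI WT (open squares), as the median CPM of 6 libraries divided by merged exon length in kb, on a log axis and grouped by family. Epha4 stands highest with 55.4 CPM per kb in CL WT, and Sema4a moves from 2.37 in CL WT to 4.70 in PI WT.

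The comparison of PI with CL asked which guidance genes differed between the paired cortex samples of an animal. In WT, Sema4a and Plxna4 were higher in PI, and Robo2, Plxnc1, Epha4, Sema3a, Plxnd1 and Sema7a were lower. Apart from Sema4a, the called changes were modest, between -0.43 and 0.20 on the log2 scale. In KO the calls were Sema4a, higher, and Robo2 and Epha4, lower. Thus 8 of the 59 members were called in WT (13.6%), where 10.6% of all 14489 genes tested were called, 5.2% higher and 5.4% lower. In KO 3 members were called (5.08%), against 10% of 14338 genes, 5.11% higher and 4.94% lower. The members' share was above that of all genes in WT and below it in KO, and neither difference was tested. The median log2 fold change over all 59 members was -0.05 in WT and -0.10 in KO, and over all genes tested it was 0.01 and 0.00.

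Fold changes were negative in 35 of the 59 members in WT (59.3%, all genes 47.7%) and in 40 in KO (67.8%, all genes 50.1%). At an unadjusted p under 0.05 there were 14 members in WT, 3 higher and 11 lower, where 23.9% of all genes passed. In KO there were 13, 1 higher and 12 lower, where 24.9% of all genes passed. Deposited values did not overlap between PI and CL in 16 members in WT, 3 higher and 13 lower (32.8% of all genes), and in 16 in KO, 1 higher and 15 lower (34.3% of all genes). The changes in WT and KO come from different animals. Of the 59 members, 31 were lower in both genotypes, 15 higher in both and 13 opposite, so 78.0% had the same sign, against 71.0% of the 14211 genes in both tables. All 8 members with a call in WT had a fold change of equal sign in KO, as did 98% of all genes called in WT. Calls shared by both genotypes were 37.5% of the members' calls in WT and 100% of those in KO. Over all genes in both tables they were 55.9% and 59.3%, and the difference was not tested. At an unadjusted p under 0.05 in both genotypes there were 10 members (16.9%), 9 of them lower in PI, and 13.9% of all genes.

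Since an animal gave both a CL and a PI library, the comparison was also fitted with the animal as a block. This added Unc5d in WT (adjusted p = 0.0108), for 9 calls where 15.7% of all genes were called. In KO it raised the calls from 3 to 7 (all genes 15%), adding Plxnc1 (adjusted p = 0.00412), Plxnd1 (adjusted p = 0.0108), Unc5c (adjusted p = 0.0223) and Plxna2 (adjusted p = 0.0387), all lower in PI. With each group centred on its median gene the split of calls was 1 higher and 7 lower in WT, in place of 2 and 6. In KO it was 1 higher and 5 lower, in place of 1 and 2. Of all genes, 11.7% were then called in WT and 11.2% in KO. Centring lowered every log2 fold change by 0.0329 in WT and 0.0352 in KO. The median over all genes became -0.02 and -0.04, so the setting itself moves values toward lower. Without a trend in the prior variance, the WT calls of Epha4, Sema3a, Plxnd1, Sema7a and Plxna4 were lost (adjusted p from 0.0542 to 0.105). That setting called 7.01% of all genes in WT.

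**Figure D2:**
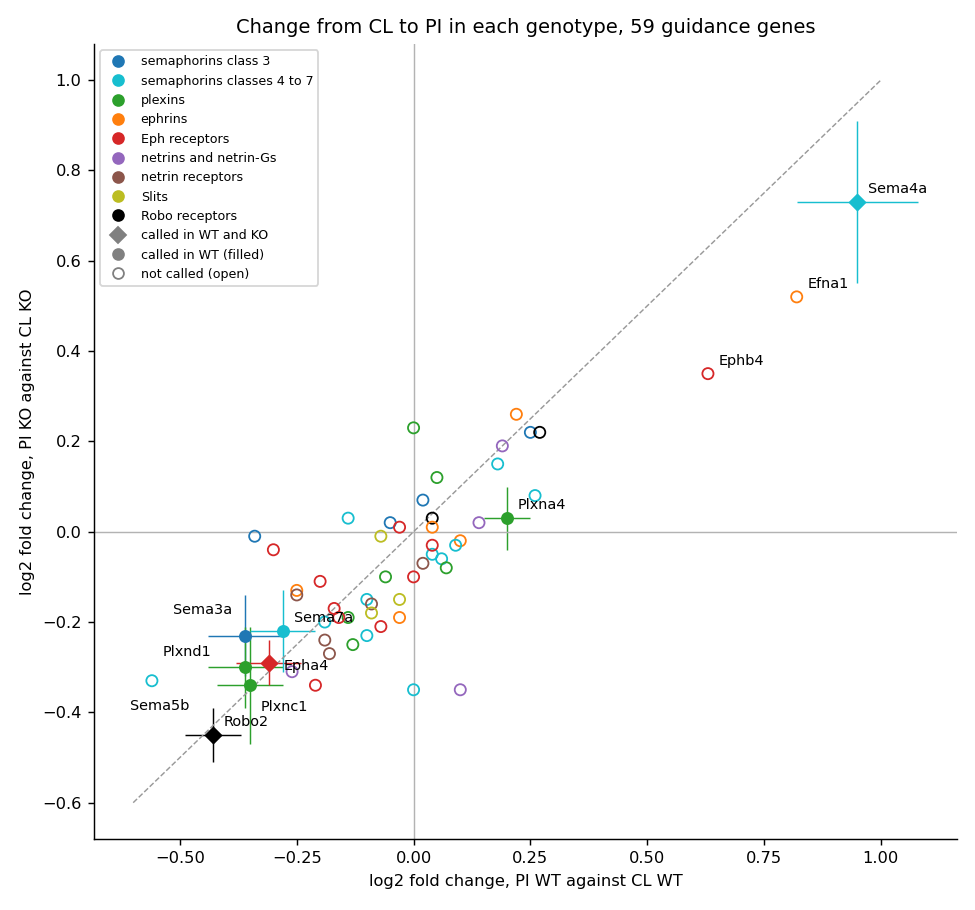
Log2 fold change from CL to PI in KO (vertical) against WT (horizontal) for the 59 members, coloured by family. Bars are ± SE for called members, and the dashed line marks equal change. Sema4a lies far to the upper right at 0.95 and 0.73, and Robo2 at the lower left at -0.43 and -0.45.

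Among ligands, 3 of 31 were called in WT (9.68%, 1 higher, 2 lower) and 1 in KO (3.23%, higher). Their median log2 fold changes were 0.00 and -0.03. Among receptors, 5 of 28 were called in WT (1 higher, 4 lower) and 2 in KO (both lower), with medians of -0.11 and -0.12. Whether ligands and receptors differ was not tested. The families are taken in turn.

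Robo2 was the receptor with the smallest p in both genotypes. Its gene lies on chromosome 16 from 73891839 to 74411825 in GRCm38, on the minus strand. Deposited log2 CPM in CL WT had a lowest value of 8.16, a median of 8.24 and a highest of 8.28, and in PI WT they were 7.73, 7.82 and 7.85. In CL KO they were 8.14, 8.20 and 8.26, and in PI KO 7.72, 7.73 and 7.79. The deposited values of PI lay below those of CL in both genotypes, without overlap. Robo2 fell by 25.6% in WT (log2 fold change -0.43, SE 0.06, adjusted p = 0.000947) and by 26.8% in KO (-0.45, SE 0.06, adjusted p = 0.000474). Robo1, which binds the same ligands, was not called (0.04 in WT, adjusted p = 0.782). Robo3, known for midline crossing of commissural axons, was not called either (0.27, SE 0.14, adjusted p = 0.285 in WT and 0.22, SE 0.19, adjusted p = 0.521 in KO). None of the 3 Slits, the secreted ligands of Robo receptors, was called, and their log2 fold changes ran from -0.09 to -0.03 in WT and from -0.18 to -0.01 in KO. Slit1 had the largest of these in WT, -0.09 (SE 0.12, adjusted p = 0.738), and in KO it stood at -0.18 (SE 0.11, adjusted p = 0.330).

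Epha4 was called lower in both genotypes. It lies on chromosome 1 from 77367185 to 77515088, on the minus strand. The lowest, median and highest log2 CPM were 8.74, 8.80 and 8.86 in CL WT and 8.40, 8.5 and 8.56 in PI WT. In KO they were 8.74, 8.77 and 8.81 in CL and 8.45, 8.5 and 8.52 in PI, again with no overlap. Epha4 fell by 19.5% in WT (-0.31, SE 0.07, adjusted p = 0.00826) and by 17.9% in KO (-0.29, SE 0.05, adjusted p = 0.00459). The other 10 Eph receptors were not called. Their median, with Epha4 included, was -0.16 in WT and -0.11 in KO, and 8 of the 11 were negative in WT and 9 in KO. The largest uncalled change in WT was that of Ephb4, a receptor of Efnb2 known from arteries and veins, at 0.63 (SE 0.37, adjusted p = 0.332), with about 6.8 reads in the shallowest CL WT library. Ephb2 (-0.30, SE 0.11, adjusted p = 0.101) did not overlap between PI and CL in WT and stood at -0.04 (SE 0.16, adjusted p = 0.910) in KO.

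The 6 ephrins, which are membrane-bound ligands of Eph receptors, had no call in either genotype. Their log2 fold changes ran from -0.25 to 0.82 in WT and from -0.19 to 0.52 in KO. Efna1 had the largest change in WT, 0.82 (SE 0.30, adjusted p = 0.102), from a lowest, median and highest log2 CPM of 0.26, 0.50 and 0.85 in CL to 1.11, 1.34 and 1.63 in PI. These groups did not overlap, while in KO they did (0.52, SE 0.44, adjusted p = 0.516). Efna5 and Efnb2, the ephrins that stood at 12.0 and 7.76 CPM per kb in CL WT, had log2 fold changes of -0.03 (SE 0.10) and 0.10 (SE 0.09) in WT. In KO, Efna5 stood at -0.19 (SE 0.08, adjusted p = 0.138), with no overlap of deposited values.

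Sema4a had the largest change of all members. It is a transmembrane semaphorin that is best known from immune cells and from retina, and it signals through plexins. The gene lies on chromosome 3 from 88435959 to 88461182, on the minus strand, and shares 73 bases of exon with Mir7011, annotated on the same strand. Lowest, median and highest log2 CPM were 3.67, 3.68 and 3.72 in CL WT and 4.41, 4.66 and 4.83 in PI WT. Every deposited PI WT value was above all those of CL WT. In KO the values were 3.57, 3.79 and 3.94 in CL and 4.27, 4.44 and 4.80 in PI, without overlap. Sema4a rose by 92.6% in WT (0.95, SE 0.13, adjusted p = 0.000595) and by 66.2% in KO (0.73, SE 0.18, adjusted p = 0.0228). Without a trend in the prior variance the call in KO was lost (adjusted p = 0.0836).

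Sema7a moved the other way. This gene lies on chromosome 9 from 57940112 to 57962865, on the plus strand, and its product binds Plxnc1 and the integrin subunit Itgb1. Log2 CPM of Sema7a was 6.15, 6.23 and 6.31 (lowest, median, highest) in CL WT and 5.88, 5.95 and 6.03 in PI WT, without overlap. It fell by 17.6% in WT (-0.28, SE 0.07, adjusted p = 0.03). In KO the values were 6.00, 6.14 and 6.22 in CL and 5.79, 5.91 and 6.00 in PI, a change of -0.22 (SE 0.09, adjusted p = 0.173) that was not called. The other 11 semaphorins of classes 4 to 7 were not called, and the family had medians of 0.00 in WT and -0.06 in KO. Of those, Sema5b had the largest change in WT, -0.56 (SE 0.21, adjusted p = 0.121), at a low level of 0.577 CPM per kb in CL WT, and stood at -0.33 (SE 0.25, adjusted p = 0.456) in KO.

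Of the 5 class 3 semaphorins, which are secreted and bind neuropilins together with plexins, Sema3a was called in WT. Sema3a, a repellent of cortical axons, lies on chromosome 5 from 13125414 to 13602565, on the plus strand. Its lowest, median and highest log2 CPM were 5.88, 6.01 and 6.07 in CL WT and 5.55, 5.63 and 5.70 in PI WT, without overlap. It fell by 22.1% in WT (-0.36, SE 0.08, adjusted p = 0.0138). The KO values of Sema3a were 5.98, 6.07 and 6.10 in CL and 5.67, 5.86 and 5.92 in PI, also without overlap but not called (-0.23, SE 0.09, adjusted p = 0.144). The other members of the class ran from -0.34 (Sema3f, SE 0.20, adjusted p = 0.342) to 0.25 (Sema3d, SE 0.13, adjusted p = 0.269) in WT. Sema3f, which stood at 0.610 CPM per kb in CL WT, changed by -0.01 (SE 0.38) in KO.

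The plexins held 3 of the 8 calls in WT, 33.3% of the family against 10.6% of all genes, with 2 lower and 1 higher. In KO, where 10% of all genes were called, no plexin was called without the animal block. Plxnc1, the receptor of Sema7a, lies on chromosome 10 from 94790866 to 94944835 and shares 115 bases of exon with Gm48718 on the same strand. Lowest, median and highest log2 CPM of Plxnc1 were 6.10, 6.16 and 6.21 in CL WT and 5.73, 5.80 and 5.88 in PI WT. It fell by 21.6% in WT (-0.35, SE 0.07, adjusted p = 0.00580), and in KO the values were 6.23, 6.27 and 6.40 in CL and 5.71, 6.03 and 6.13 in PI, apart but with a larger error (-0.34, SE 0.13, adjusted p = 0.130). Thus both Sema7a and its receptor were called lower in WT.

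Plxnd1, a receptor of Sema3e that is known from vessels and from neurons, lies on chromosome 6 from 115954811 to 115995005. Its log2 CPM was 5.86, 5.97 and 6.10 in CL WT and 5.59, 5.63 and 5.65 in PI WT. It fell by 21.9% in WT (-0.36, SE 0.08, adjusted p = 0.0143), without overlap. In KO the values were 5.90, 6.02 and 6.14 in CL and 5.65, 5.69 and 5.82 in PI, also without overlap but not called (-0.30, SE 0.09, adjusted p = 0.0628). Its ligand Sema3e was not called (0.02, SE 0.12, adjusted p = 0.928 in WT).

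Plxna4, which pairs with neuropilins as a receptor of class 3 semaphorins, was the plexin called higher. It lies on chromosome 6 from 32144268 to 32588192 and shares 110 bases of exon with the antisense gene Plxna4os3. Log2 CPM of Plxna4 was 7.31, 7.38 and 7.42 in CL WT and 7.55, 7.56 and 7.59 in PI WT, without overlap. It rose by 14.7% in WT (0.20, SE 0.05, adjusted p = 0.0359). In KO its values were 7.33, 7.34 and 7.36 in CL and 7.29, 7.35 and 7.48 in PI, and the change was 0.03 (SE 0.07, adjusted p = 0.834). With each group centred on its median gene the call in WT was lost (0.16, adjusted p = 0.0717) and the value in KO turned to -0.01. Plxna2, the plexin with the highest level, changed by -0.14 (SE 0.05, adjusted p = 0.0837) in WT and -0.19 (SE 0.06, adjusted p = 0.0636) in KO and did not overlap between PI and CL in either.

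**Figure D3:**
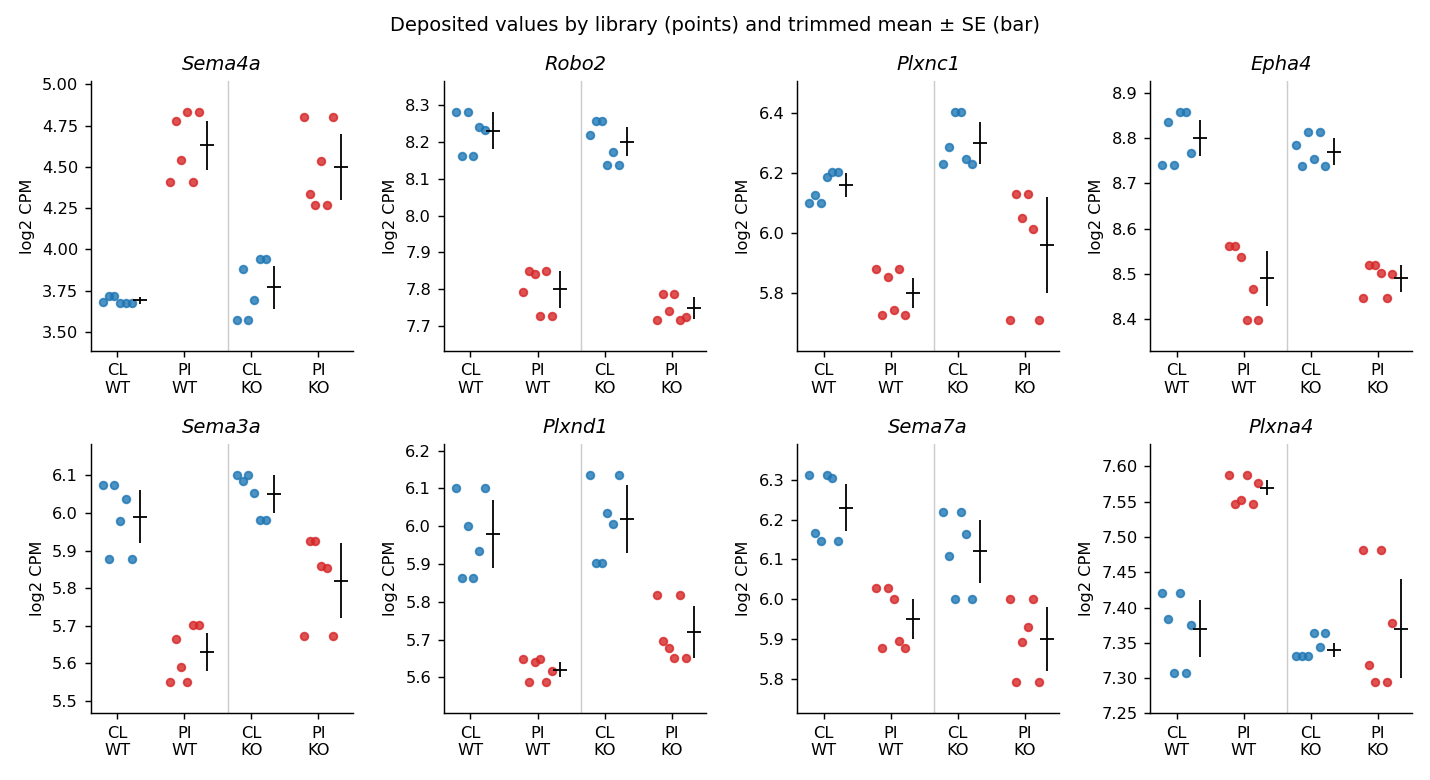
Deposited log2 CPM of the 8 called members in each library (points, CL blue and PI red), with the trimmed mean ± SE of each group (black bar). WT and KO come from separate tables, divided by the grey line. In WT the CL and PI points of all 8 genes are apart, and in KO those of Plxna4 overlap.

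No netrin, netrin-G or netrin receptor was called without the animal block. The 4 netrins and netrin-Gs had medians of 0.12 in WT and -0.14 in KO. Ntng1, which encodes netrin-G1, a lipid-anchored synaptic adhesion protein, had the largest change in WT, -0.26 (SE 0.10, adjusted p = 0.127). Its groups did not overlap, at 4.20, 4.22 and 4.27 log2 CPM in CL WT and 3.83, 4.03 and 4.05 in PI WT. In KO it stood at -0.31 (SE 0.13, adjusted p = 0.168). The 5 netrin receptors had medians of -0.18 and -0.16, with 4 of 5 negative in WT and 5 of 5 in KO. Unc5d, with the largest change in WT, stood at -0.25 (SE 0.13, adjusted p = 0.280), and Unc5c at -0.19 (SE 0.08, adjusted p = 0.163) in WT and -0.24 (SE 0.08, adjusted p = 0.0699) in KO. Dcc, the attractive receptor of Ntn1, changed by -0.18 (SE 0.11, adjusted p = 0.389) in WT and -0.27 (SE 0.15, adjusted p = 0.284) in KO.

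The 250 bases upstream of the start of the 3 members called in both genotypes are shown because these are the windows in which members that changed in opposite directions could be compared for short motifs (RefSeq, GRCm38.p6, gene strand). Capitals mark the GC box, GGGCGG on either strand. The windows are chr1:77515089-77515338 for Epha4, chr16:74411826-74412075 for Robo2 and chr3:88461183-88461432 for Sema4a, all on the minus strand.
Epha4: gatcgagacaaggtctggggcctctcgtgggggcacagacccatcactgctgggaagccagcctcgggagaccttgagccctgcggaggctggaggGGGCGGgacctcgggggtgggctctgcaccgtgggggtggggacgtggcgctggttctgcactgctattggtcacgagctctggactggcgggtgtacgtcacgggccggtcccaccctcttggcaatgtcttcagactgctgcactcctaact
Robo2: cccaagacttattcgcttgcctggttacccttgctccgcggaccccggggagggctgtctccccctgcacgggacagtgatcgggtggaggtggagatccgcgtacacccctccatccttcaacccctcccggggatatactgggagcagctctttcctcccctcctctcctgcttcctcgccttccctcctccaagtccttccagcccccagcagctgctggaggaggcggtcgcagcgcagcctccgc
Sema4a: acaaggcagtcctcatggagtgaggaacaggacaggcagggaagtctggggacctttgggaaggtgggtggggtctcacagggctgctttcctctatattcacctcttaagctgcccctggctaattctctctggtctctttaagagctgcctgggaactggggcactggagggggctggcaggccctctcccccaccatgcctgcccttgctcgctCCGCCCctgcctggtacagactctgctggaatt
The GC content was 66.0% for Epha4, 65.6% for Robo2 and 59.6% for Sema4a, against a median of 52.4% over all 32851 windows. A GC box was found in the windows of Epha4 and Sema4a and in 32.7% of all windows. It was in 17 of the 21 members with a window, Epha4 and Sema4a included, and the median GC content of the 21 was 65.6%. Member windows were limited to those whose RefSeq start coincides with the start of the GENCODE gene. The 32851 windows were not limited in this way. The letters of an AP-1 site (TGANTCA, in 6.75% of all windows), a cyclic AMP response element (TGACGTCA, 1.55%), a STAT site (TTCNNNGAA, 7.02%) and an E-box (CACGTG, 6.02%), each searched on both strands, were not in these 3 windows.

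Partners of the guidance genes, a list of co-receptors and intracellular effectors by role, were examined in the same fits. Of 75 tested, 17 were called in WT (4 higher, 13 lower, 22.7%, against 10.6% of all genes) and 18 in KO (1 higher, 17 lower, 24%, against 10%). Both genotypes shared 13 calls, which is 76.5% of those in WT and 72.2% of those in KO. Over all genes in both tables, shared calls were 55.9% of those in WT and 59.3% of those in KO, and the difference was not tested. Without a trend in the prior variance, calls among the 75 partners fell to 10 in WT and 5 in KO. That setting called 7.01% of all genes in WT and 5.15% in KO. The median over the list was -0.04 in WT and -0.05 in KO. Effectors of Eph receptors and ephrins held 4 calls of 14 in WT (28.6%) and 5 in KO (35.7%), all lower. Of all 14, log2 fold changes were positive in 7 and negative in 7 in WT, with a median of 0.03. In KO they were positive in 5 and negative in 9, with a median of -0.1. Ngef, the exchange factor ephexin that EphA4 activates, fell by 0.41 on the log2 scale in WT (SE 0.06, adjusted p = 0.00125) and by 0.28 in KO (SE 0.07, adjusted p = 0.0305). Chn1, a chimaerin that restrains Rac downstream of EphA4, fell by 0.47 in WT (SE 0.07, adjusted p = 0.00163) and by 0.46 in KO (SE 0.07, adjusted p = 0.00217). Their receptor Epha4 was also called lower in both genotypes, and Ngef and Chn1 were named for their small p.

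Of the 9 partners of Slits and Robo receptors, 1 was called in WT and 2 in KO, all lower. Srgap2, a GTPase-activating protein that binds Robo receptors, changed by -0.28 in WT (SE 0.05, adjusted p = 0.00433) and -0.27 in KO (SE 0.08, adjusted p = 0.0448). The netrin co-receptors and partners had 5 of 12 called in each genotype (41.7%), all lower. Among them Dscam, a cell adhesion molecule that can bind netrin, changed by -0.35 in WT (SE 0.07, adjusted p = 0.00454) and -0.33 in KO (SE 0.08, adjusted p = 0.0259). Lrrc4c, the synaptic partner of Ntng1, changed by -0.31 in WT (SE 0.07, adjusted p = 0.00909) and -0.30 in KO (SE 0.05, adjusted p = 0.00340).

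The semaphorin co-receptors moved upward where they were called, 2 of 4 in WT and 1 of 4 in KO. Met, the hepatocyte growth factor receptor, which forms complexes with B-class plexins, rose by 0.58 in WT (SE 0.08, adjusted p = 0.000785) and 0.41 in KO (SE 0.09, adjusted p = 0.0134). Semaphorin and plexin effectors had 2 of 17 called in WT (11.8%), 1 in each direction, and 3 in KO (17.6%), all lower. Pak1, a kinase activated by Rac and Cdc42, changed by -0.35 in WT (SE 0.06, adjusted p = 0.00264) and -0.22 in KO (SE 0.06, adjusted p = 0.0375). Rtn4, which encodes the growth inhibitor Nogo, changed by -0.34 in WT (SE 0.06, adjusted p = 0.00267) and -0.27 in KO (SE 0.05, adjusted p = 0.00478). It was the single call among 10 genes of the myelin inhibitor pathway in each genotype (10%).

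**Figure D4:**
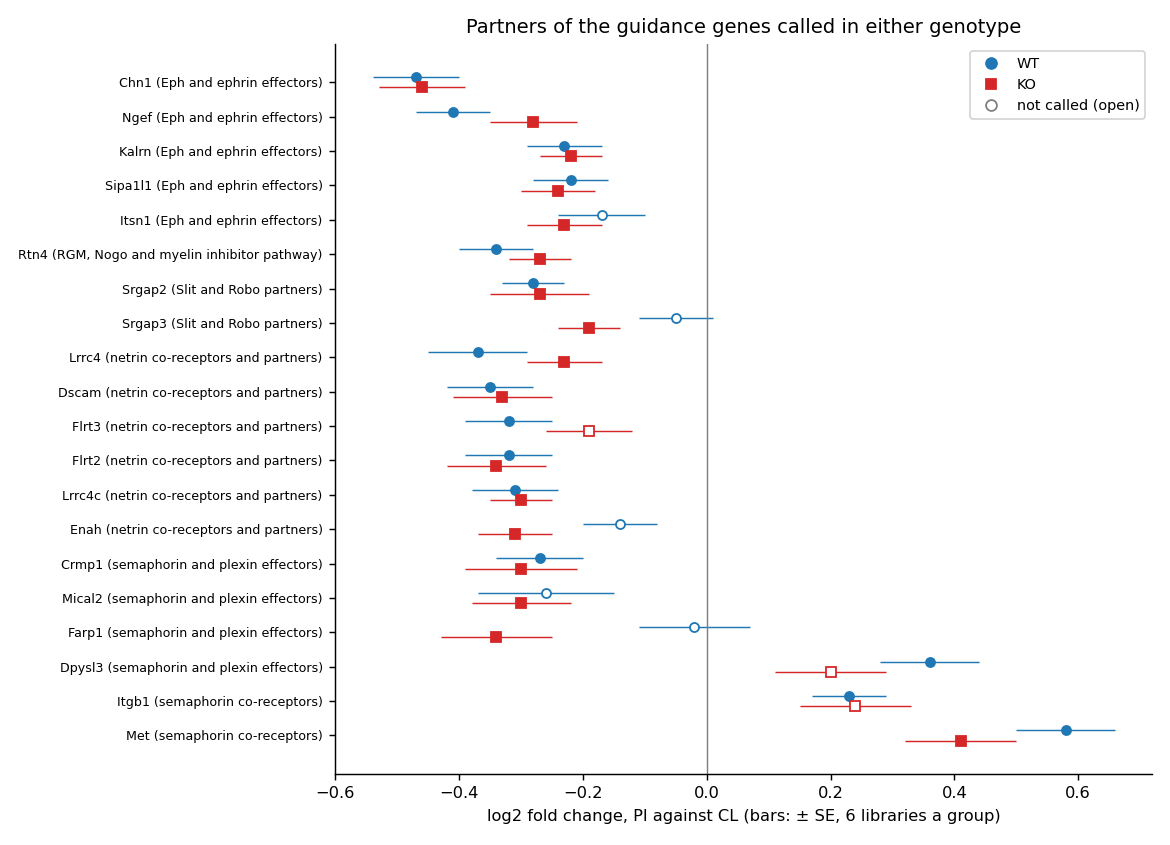
Log2 fold change from CL to PI of the partners called in either genotype, in the roles for which counts are given, with ± SE, in WT (blue circles) and KO (red squares), open where not called. Most points lie left of 0, and Met lies farthest to the right with 0.58 in WT and 0.41 in KO.

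Markers of cell types moved with these comparisons. Summed over 12 neuron markers, levels ran from 8527 to 9324 CPM in PI WT and from 9907 to 10545 in CL WT, with 4 called lower and a median log2 fold change of -0.22. In KO the sums were 8257 to 9029 CPM in PI and 9871 to 10262 in CL, with 4 called lower and 1 higher. The 9 cortex layer markers summed to 738 to 779 CPM in PI WT and 875 to 1008 in CL WT. Reactive astrocyte genes went the other way, with 9 of 10 called higher in WT (449 to 520 CPM summed in PI, 110 to 135 in CL) and 8 of 9 in KO (427 to 608 and 107 to 125). Of 10 microglia markers 5 were called higher and 1 lower in each genotype, with sums of 217 to 242 CPM in PI WT and 191 to 206 in CL WT. Astrocyte markers had 3 of 9 called lower and 1 higher in WT, oligodendrocyte markers 1 of 9 lower and oligodendrocyte precursor markers 1 of 6 lower. Of 9 endothelium markers none was called in WT, where 8 were positive with a median of 0.40, and in KO 1 was called lower, with a median of 0.19. No marker of pericytes and vascular smooth muscle (7) was called in WT, and fibroblast and meninges markers had 1 of 7 called in each direction. Markers of striatum, a region next to the cortex, summed to 177 to 215 CPM in PI WT and 223 to 285 in CL WT over 7 genes, with Drd2 and Adora2a not listed. Singly, 3 of these 7 were positive and 4 negative in WT, with a median of -0.01. There 1 was called higher and 2 lower. In KO 5 were positive and 2 negative, with a median of 0.12, and 1 was called lower. Of 11 neutrophil and monocyte markers 1, Cd14, was listed in the comparisons of PI with CL. Its called increase was 3.41 in WT and 3.04 in KO on the log2 scale (6.33 to 10.2 CPM in PI WT, 0.526 to 1.14 in CL WT). S100a8, S100a9 and Ly6g were not listed there, while S100a8 and S100a9 were listed where PI KO was compared with PI WT. In bulk tissue, fewer cells of a type and less RNA per cell cannot be told apart, and the part of these shifts in the members' changes was not tested.

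The comparison of KO with WT asked whether loss of ciRS-7 went with a different level of guidance genes. No member was called in CL (0.0279% of 14323 genes called, 0.014% higher and 0.014% lower) or in PI (0.0208% of 14452 called, 0.00692% higher and 0.0138% lower). At an unadjusted p under 0.05 there were 2 members in CL, 1 in each direction, where 5.73% of all genes passed, and 1 in PI, where 5.75% passed. Median log2 fold changes over the 59 members were 0.01 in CL and -0.04 in PI, with 0.00 over all genes in both. Limma on the values as deposited called 6 members in CL and 7 in PI, but 16.1% and 16.5% of all genes. The CL and PI comparisons use the same animals, so the values are given side by side.

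Efnb2, a transmembrane ephrin, had the smallest p in CL. Log2 CPM of Efnb2 was 5.62, 5.70 and 5.82 (lowest, median, highest) in CL WT and 5.94, 6.00 and 6.03 in CL KO, without overlap. The difference was 0.28 (SE 0.08, adjusted p = 0.597) in CL. In PI the values were 5.76, 5.91 and 5.96 in WT and 5.99, 6.02 and 6.07 in KO, a difference of 0.15 (SE 0.08, adjusted p = 0.854). Robo3 had the smallest p among the members with lower values in KO in CL. There its values were 3.80, 3.95 and 4.07 in WT and 3.51, 3.58 and 3.70 in KO (-0.34, SE 0.12, adjusted p = 0.741). In PI they were 4.05, 4.30 and 4.46 in WT and 3.58, 3.86 and 4.20 in KO, with overlap (-0.39, SE 0.21, adjusted p = 0.854).

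The other members with the smallest p in CL were Plxnc1 (0.15, SE 0.07) and Ephb3 (0.24, SE 0.13), higher in KO, and Sema3e (-0.13, SE 0.08) and Plxnb3 (-0.20, SE 0.14), lower. Plxnc1 stood at 6.07, 6.12 and 6.17 log2 CPM in CL WT and 6.21, 6.24 and 6.38 in CL KO, and Ephb3 at 3.26, 3.41 and 3.48 and at 3.50, 3.60 and 3.78, both without overlap. Sema3e (5.55, 5.69 and 5.80 in WT, 5.52, 5.56 and 5.58 in KO) and Plxnb3 (3.00, 3.01 and 3.11 in WT, 2.69, 2.80 and 3.02 in KO) overlapped. Their adjusted p ran from 0.876 to 0.908. Deposited values did not overlap between KO and WT in 7 members in CL, 6 higher and 1 lower (13.5% of all genes), and in 4 in PI, 2 in each direction (14.1%).

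In PI the smallest p was that of Plxna4. Its log2 CPM was 7.57, 7.59 and 7.61 in PI WT and 7.33, 7.38 and 7.52 in PI KO, without overlap, and the difference was -0.18 (SE 0.07, adjusted p = 0.854). In CL the difference of Plxna4 was -0.02 (SE 0.05). Sema3a was higher in PI KO by 0.20 (SE 0.10, adjusted p = 0.854), with 5.58, 5.65 and 5.73 in WT and 5.71, 5.89 and 5.96 in KO, which overlap. Ephb2 was at 0.23 (SE 0.15, adjusted p = 0.882), from 3.31, 3.41 and 3.50 in PI WT to 3.39, 3.66 and 3.85 in PI KO. Epha6 was at -0.17 (SE 0.09, adjusted p = 0.854), from 5.68, 5.76 and 5.81 to 5.46, 5.56 and 5.71. Both overlapped. For the members called between PI and CL in both genotypes, the differences between KO and WT in PI were -0.05 (SE 0.06) for Robo2, 0.01 (SE 0.07) for Epha4 and -0.13 (SE 0.19) for Sema4a. By family, medians in PI ran from -0.08 for the netrin receptors to 0.05 for the class 3 semaphorins, and in CL from -0.05 for the Slits to 0.10 for the netrins and netrin-Gs.

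**Figure D5:**
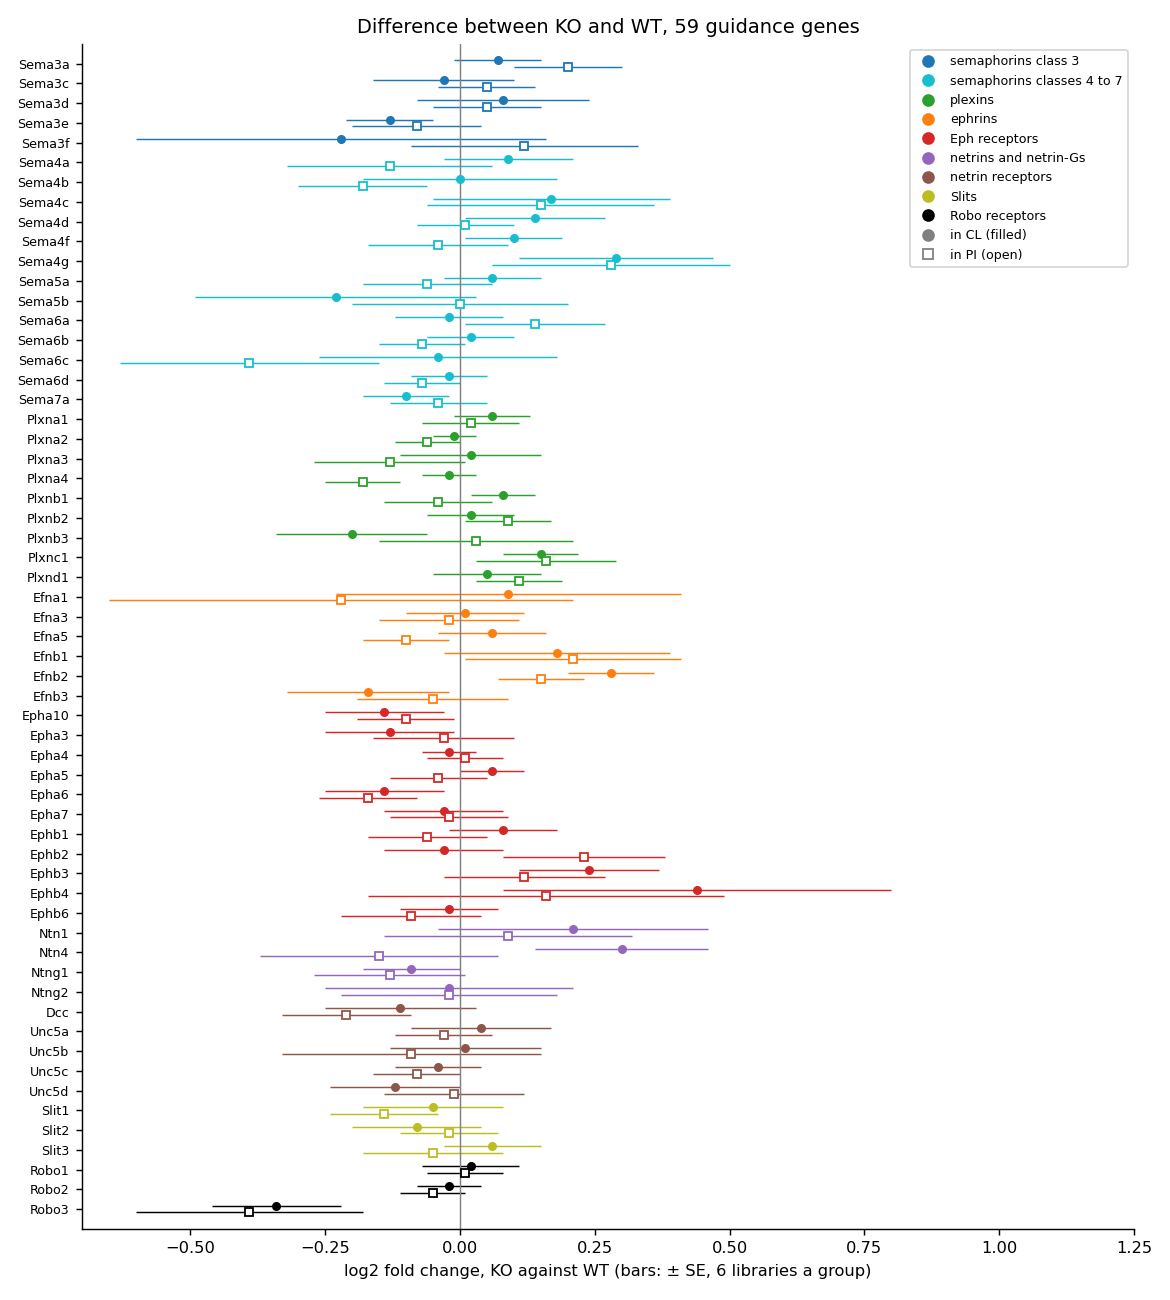
Log2 fold change of KO against WT for the 59 members, with ± SE, in CL (filled circles) and PI (open squares), grouped by family. Most points lie close to 0, and Robo3 lies at -0.34 in CL and -0.39 in PI.

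An interaction term, the PI minus CL change of KO less that of WT, addressed whether the genotypes responded unequally. No member was called, with or without the animal block, and none had an unadjusted p under 0.05 in the test without it (all genes 0.0% called, 0.00704% with the block, and 4.55% at the unadjusted threshold), and limma on the deposited values called 2 members, Ntn4 and Plxna4, and 13.7% of all genes. The median over the members was -0.04. Plxna4 had the smallest p, with a change of 0.03 in KO and 0.20 in WT and a difference of -0.17 (SE 0.09, adjusted p = 0.992). Ntn4, which encodes a netrin of basement membranes, had -0.35 in KO and 0.10 in WT, a difference of -0.45 (SE 0.28, adjusted p = 0.992). Efna5 differed by -0.16 (SE 0.13), Ephb2 by 0.26 (SE 0.20), Sema3a by 0.13 (SE 0.13) and Plxnb3 by 0.23 (SE 0.24), each with an adjusted p of 0.992. So the changes of Plxna4 in WT, called, and in KO, not called, were not shown to differ.

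Because ciRS-7 binds miR-7, the members were searched for the match to the miR-7 seed, bases 2 to 8 of the microRNA, shown in capitals in the mature sequences (RefSeq, GRCm38.p6). Both family members share this seed.
mmu-miR-7a-5p: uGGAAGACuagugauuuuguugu
mmu-miR-7b-5p: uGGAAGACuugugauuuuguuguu
The match GTCTTCC was present in the annotated 3′ UTR of 10 of the 57 members that have one (17.5%), and in 12.7% of 12324 genes. They are Epha3, Ntn4, Plxna1, Plxna4, Plxnb1, Plxnd1, Sema3a, Sema3e, Sema4c and Sema6d. The sites of the 3 that were called in WT between PI and CL, and of the 2 where the match is followed by A, are printed with the match in capitals on the gene's strand.
Plxna4, chr6:32147130-32147153, minus strand: ggcatggtctggtcatGTCTTCCt
Plxnd1, chr6:115955118-115955141, minus strand: gtagctggactactcaGTCTTCCt
Sema3a, chr5:13600400-13600423, plus strand: gacaccaagaattatgGTCTTCCc
Epha3, chr16:63544846-63544869, minus strand: gtataactatctttgaGTCTTCCa
Plxnb1, chr9:109118519-109118542, plus strand: gcctcaggaccaccctGTCTTCCa
Between KO and WT the 10 members with a match had a median log2 fold change of -0.03 in PI (4 higher, 6 lower) and 0.05 in CL (6 higher, 4 lower). The 47 members with a 3′ UTR and no match had -0.04 and 0.01. All tested genes with a match had 0.00 in PI and -0.01 in CL. The 3′ UTRs with a match were longer, with a median of 2529 bases against 1358 in the members without. Among the members with a match, Plxna4 was at -0.18 and Sema3a at 0.20 in PI, the lowest and the highest of the 10.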

How the data were processed

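The deposited values are log2 CPM in 4 tables of 12 libraries, 1 table for each pair of groups, per the file headers. The build is mm10, per the submitters' processing notes. The aligner, annotation, scaling and use of strand in counting are not given in the sources used here. Every column matched a sample title (0 unused columns). Each table was scaled on its own, so tests stay within a table, except the interaction, which takes the difference of 2 changes that were each measured within a table.

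In 100% of genes the authors' log2 values had been drawn in to the group quartiles, which weight the second value from each end by 0.75 and its inner neighbour by 0.25, a step that no label records. The 4 inner values were solved from this, within each group of 6. Their trimmed mean, with the Winsorized sum of squares as error (6 degrees of freedom, 12 for the interaction), was passed to limma 3.58.1 (R 4.3.3) with a trend. Tests were two-sided, with Benjamini-Hochberg adjustment over all genes of a table. The test was tried on simulated data.

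Replicates are separate animals by their labels. Labels tie each CL library to the PI library of its own animal, and the pairs correlated with r from -0.012 to 0.209 in their deviations from group means. These correlations were taken on the drawn-in values. For a PI library, the CL library with the highest r was that of its own animal in 5 of 6 animals in WT. In KO this held in 3 of 6. The main test does not use the pairing. The block is given as an alternative test that does, and it too uses tied values, since the extremes are not known.

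The members and lists were chosen with earlier results of these data known. Full values were given for members called between PI and CL and, for KO against WT and the interaction, for the 3 with the smallest p in each direction. Of uncalled members, the one with the largest change in WT of each family was named, and of partners the 8 with the smallest p. A few further members were named after their values were seen. Positions, exon lengths and 3′ UTRs (of the transcript with the longest coding sequence) are from GENCODE M21 (GRCm38), where all 59 symbols matched. For members, motifs were searched only in windows whose RefSeq start coincides with the start of the GENCODE gene, which 21 members have. Counts for 1 role of the partner list are not reported here.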

Additional observations from a re-analysis of the deposited data

How the results depend on the processing

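Calls depended most on how the drawn-in values were treated. Limma on the deposited values, which takes the reduced spread as real, called 29 members for PI WT against CL WT, 24 for PI KO against CL KO, 7 for PI KO against PI WT, 6 for CL KO against CL WT and 2 for the interaction, and 44.6% and 46.5% of all genes in the comparisons of PI with CL. With the animal as a replicate block on those values it called 31 in WT, 25 in KO and 3 for the interaction. The shares of all genes called were then 45.6%, 47.1% and 15.6%. The replicate block in the trimmed-mean test gave 9 calls in WT, 7 in KO and 0 for the interaction, and it changed no other call of the members. Without a trend in the prior variance 3 members were called in WT (Plxnc1, Robo2, Sema4a) and 2 in KO (Epha4, Robo2). That setting called 7.01% of all genes in WT and 5.15% in KO. The 5 calls lost in WT then had adjusted p from 0.0542 to 0.105. Centring each group on its median gene gave 8 calls in WT, with Plxna2 in place of Plxna4, and 6 in KO. It then called 11.7% and 11.2% of all genes. Plxna4 in KO turned to -0.01, because centring lowers every log2 fold change in KO by 0.0352. Why the median genes of the groups differ was not tested. A minimum mean of 1 log2 CPM, which left 57 members in the comparisons of PI with CL, log2(CPM + 1) and adjustment over genes listed in all 4 tables left every count of called members as it was. Robo2 was called in both genotypes under all of these settings. Ephb4 and Efna1, with the fewest reads among the members named, were not called in WT in the trimmed-mean test (adjusted p = 0.332 and 0.102) and were called by limma on the deposited values (adjusted p = 0.0124 and 0.000576), and the part of depth was not tested.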

Other observations

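Known ligand and receptor pairs can be set side by side for the change from CL to PI. For Slits and Robo2 the receptor was called lower and no Slit was called. For Sema7a and Plxnc1 both were called lower in WT, and Itgb1, an integrin subunit that also binds Sema7a, was called higher in WT (0.23, SE 0.06, adjusted p = 0.0230). In KO neither Sema7a nor Plxnc1 was called without the animal block, and Itgb1 was not called higher. For Sema3a the ligand was called lower in WT, while the co-receptor Nrp1 was not called (0.32, SE 0.14, adjusted p = 0.183 in WT and 0.12, SE 0.08, adjusted p = 0.389 in KO). For the netrin-G ligands, the partners Lrrc4 (-0.37, SE 0.08, adjusted p = 0.00853 in WT and -0.23, SE 0.06, adjusted p = 0.0325 in KO) and Lrrc4c were called lower in both genotypes, and neither Ntng1 nor Ntng2 was called. Flrt2, which binds Unc5d, was called lower in both (-0.32, SE 0.07, adjusted p = 0.0149 in WT and -0.34, SE 0.08, adjusted p = 0.0247 in KO), and in the trimmed-mean test Unc5d was called in WT with the animal block and not without it. These pairs were chosen after their values were seen.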
